A study of Mus musculus with 121 samples.

Results

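H19, Igf2 and 6 further genes of insulin-like growth factor (IGF) signalling were followed in fibroblasts that had been kept on daily cycles of glucose and insulin. The 8 genes are H19, Igf2, Igf2r, Igf1, Igfbp2, Igfbp3, Igfbp6 and Igfbp7, out of 31053 genes listed in the count files, and they were matched by Ensembl identifier to mouse symbols. The genes were chosen on values of these data, their levels by treatment and collection, and which of these values decided is not recorded. The differences of all 8 between treatments and over collections may therefore have been used in the choice. They are given as a description. The p-values and calls printed with them show where a gene stands among all genes fitted and are no independent test. None is given for the H19 differences in level between treatments. The other 7 belong to its locus or to the pathway, and all 8 were chosen with results of these data known.

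The cells were an immortalized ear fibroblast line from Per2::lucSV knock-in mice (genotype PER2::LUC sv in the labels), at passage P25, which carries a luciferase reporter of the clock gene Per2. All of them were expanded in high glucose and then changed for 3 days, every 12 h, between medium H (rich in glucose and insulin) and medium L (low in glucose, with no insulin). In HL the H medium came first in each day, in LH the L medium came first, and in HH the H medium was renewed at every change; all media held 1% serum and a supplement without insulin. After 12 h without a change of medium (free run), RNA was collected 6 times at intervals of 4 h and sequenced by 3′DGE, which reads the 3′ end of each transcript. By their titles, 21 libraries were HL, 22 LH and 19 HH, with 2 to 4 libraries of a treatment at each collection. The clock hours in the labels do not follow the collection numbers in steps of 4 h, and at collections 3 and 4 those of LH differ from those of HL and HH, so time was taken from the collection number and the interval. The replicates are of 1 cell line; the study's methods call replicates biological in general, and the labels do not say whether these were separate cultures, so p-values measure the spread between these libraries.

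Each library holds up to 2 sets of counts, since the libraries were processed a second time; the second set is marked bis in the title. There are 121 sets, and 59 of the 62 libraries have both. Summed libraries held 104912 to 11619095 counts (median 5825881), and 1 library, LH at collection 2, replicate 2, held under 1000000. A summary of the reads that came with the study names the libraries by their numbers, and these names differ from the titles in 35 of the 57 libraries it lists and leave out 5; the 19 HH libraries have the same name in both. Which naming is right cannot be told apart here, so values are given by titles and again by library numbers. By library numbers, LH at collection 5 is 1 library. The cells held fibroblast transcripts throughout, for example 15518 CPM (the counts of a gene per 1000000 counts of its library) of Col1a2 and 2131 CPM of Vim as medians over the 62 libraries, while of the markers of other cell types Krt5 (keratinocytes) and Myod1 (muscle) had no count in any library. Others of those lists were present, Krt14 with 85 counts in 24 libraries, Cdh1 with 548 in 60 and Acta1 with 90 in 38, and Kdr and Sox9, which mark endothelium and cartilage, were abundant at medians of 177 CPM and 513 CPM.

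IGF1 and IGF2 are secreted ligands that act through the IGF1 receptor. IGF-binding proteins hold the ligands outside the cell, and the IGF2 receptor, which is also the receptor for mannose 6-phosphate, takes IGF2 up for breakdown. H19 is a long non-coding RNA that neighbours Igf2 on the chromosome; both are imprinted, H19 being expressed from the maternal and Igf2 from the paternal copy, and both are strongly expressed in fetal tissue and fall after birth. H19 is also the precursor of the microRNA miR-675, and an intron of Igf2 holds miR-483.

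H19 lies at chr7:142575529-142578143 on the minus strand (GRCm38) and Igf2 at chr7:142650766-142666816 on the same strand. The mature microRNAs of the 2 genes are shown because they are the processed products of these loci that a count of 3′ ends does not measure; neither microRNA gene is listed in the files. The sequences are from RefSeq (GRCm38.p6), with the seed, bases 2 to 8, in capitals, and the 4 seeds all differ. The miR-675 pair lies in the H19 transcript, at chr7:142577112-142577133 for the 5p arm and chr7:142577078-142577099 for the 3p arm. The miR-483 pair shares no exonic base with Igf2, at chr7:142654968-142654989 for the 5p arm and chr7:142654932-142654952 for the 3p arm.
miR-675-5p: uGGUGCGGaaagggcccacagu
miR-675-3p: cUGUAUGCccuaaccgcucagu
miR-483-5p: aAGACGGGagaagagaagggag
miR-483-3p: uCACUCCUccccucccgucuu

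H19 was a rare transcript whose counts came almost wholly from the first set. It had 320 counts in all, in 44 of 62 libraries. In the 59 libraries with both sets, the first held 290 counts and the second 9, which are pooled levels of 1.68 CPM and 0.0518 CPM. H19 was higher in the first set in 39 libraries and in the second in 3, and 17 were equal. The first set ranged from 0 to 26 counts and the second from 0 to 1. The log2 fold change of the first over the second set was 4.30 (SE 0.26), with an adjusted p of 1.65e-43 (edgeR's quasi-likelihood test paired by library, Benjamini-Hochberg over 13292 genes). Of all genes tested, 17.0% passed that test in either direction, 8.38% higher in the first set and 8.66% higher in the second, and 0.609% were higher in the first set by 4-fold or more.

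The place of a library in the number order also went with H19. In the first 33 libraries each first set held 1 to 26 H19 counts, 301 in all, whereas the 31 second sets of the same libraries held 0 or 1, 5 in all. In the following 29 libraries the first sets held 0 to 2 counts, 10 in all in 9 libraries, and the 28 second sets held 0 or 1, 4 in all. The break was placed after the values were seen, at the first library with no H19 count in its first set, so no test is given. By titles the first 33 libraries were the 19 of HH, the 3 of HL at collection 1 and 11 of LH from collections 3 to 5. By library numbers they were the 19 of HH and 14 of HL, with none of LH.

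**Figure D1:**
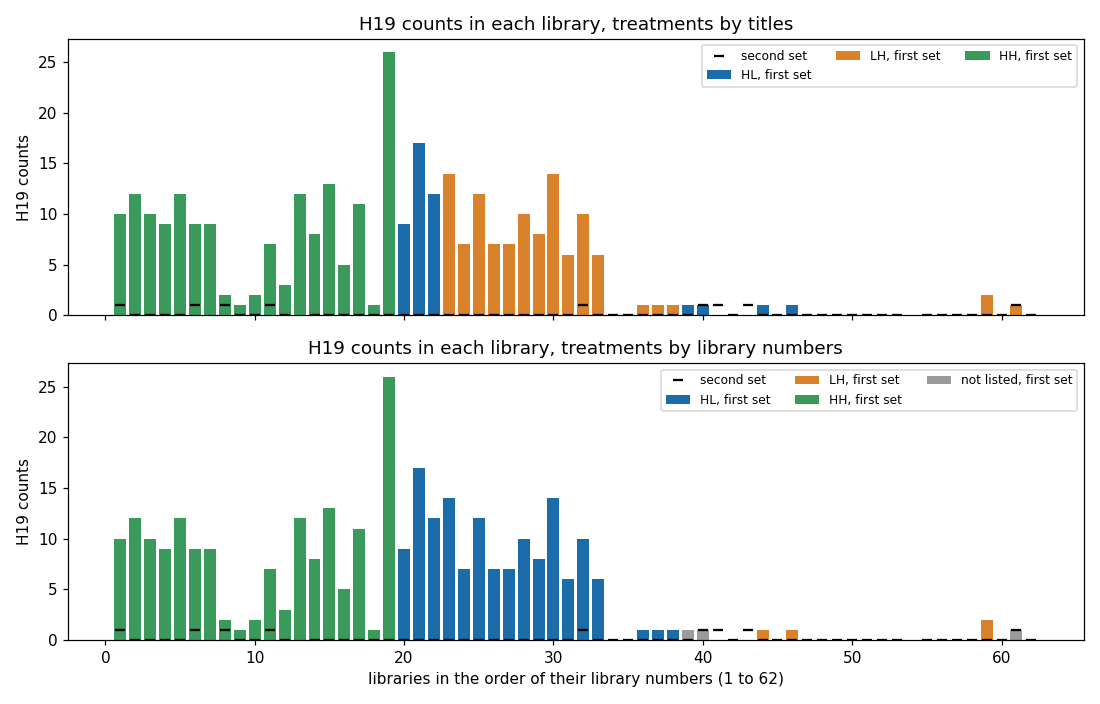
H19 counts (vertical axis) in each of the 62 libraries, placed in the order of their library numbers; bars are the first set, dashes the second set, and colours the treatment by titles (above) or by library numbers (below; grey, not listed). First-set counts of 1 to 26 fill the first 33 libraries and do not go above 2 in the following 29, while the second set stays at 0 or 1.

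The H19 difference between treatments turned with the naming. By titles, H19 in the summed sets ran in HL from 0 to 3.06 CPM with a median of 0, in LH from 0 to 19.1 CPM with a median of 1.05, and in HH from 0.163 to 3.71 CPM with a median of 1.46. The highest LH value is 2 counts in the library of 104912 counts. The 3 groups overlapped, and the fitted log2 fold changes were 1.91 (SE 0.63) for LH against HL, 2.51 (SE 0.58) for HH against HL and -0.60 (SE 0.58) for LH against HH. By library numbers, HL ran from 0 to 3.06 CPM with a median of 1.22, and LH from 0 to 0.285 CPM with a median of 0, from 5 counts in 19 libraries. The same fold changes were then -4.10 (SE 0.53), 0.34 (SE 0.41) and -4.44 (SE 0.53).

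In the second set, H19 showed neither pattern. By titles it had 3 counts in 20 HL libraries, 2 in 22 LH libraries and 4 in 17 HH libraries, and by library numbers 1 in HL, 1 in LH and 4 in HH. It did not reach 1 cpm in 3 libraries there and was not tested. At these totals, a difference of H19 between treatments was not detectable in the second set.

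Over time H19 lay apart at 1 HL collection by titles. There, HL at collection 1 held 9 to 17 counts in its 3 libraries, and the 18 libraries of the later collections held 0 to 2. The fit over the 6 HL collections gave H19 an adjusted p of 0.0065 by titles (edgeR), where 0.301% of all genes passed, and of 0.683 by library numbers. The value by titles was no longer under 0.05 without HL replicate 1, 2, 3 or 4. The fit of a 24 h rhythm gave an adjusted p of 0.00146 for LH against HL by titles, where 0.0677% of genes passed, and of 0.9998 by library numbers. Neither fit is an independent test, since values of H19 by treatment and collection were used in choosing the gene, and nothing is read from them. Both rest on the first set, since H19 was not tested in the second, and by titles the 3 HL libraries of collection 1 are among the first 33 in number order.

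The 2 sets of a library otherwise gave like values for the IGF genes. Over the 55 libraries with at least 1000000 counts in each set, Spearman's rho between the sets was 0.99 for Igf1, 0.91 for Igfbp2, 0.87 for Igfbp7, 0.83 for Igf2r, 0.79 for Igfbp6 and 0.73 for Igfbp3. It was 0.37 for Igf2 and 0.026 for H19, both of which had few counts. These are descriptions over libraries in which both sets share the same RNA.

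**Figure D2:**
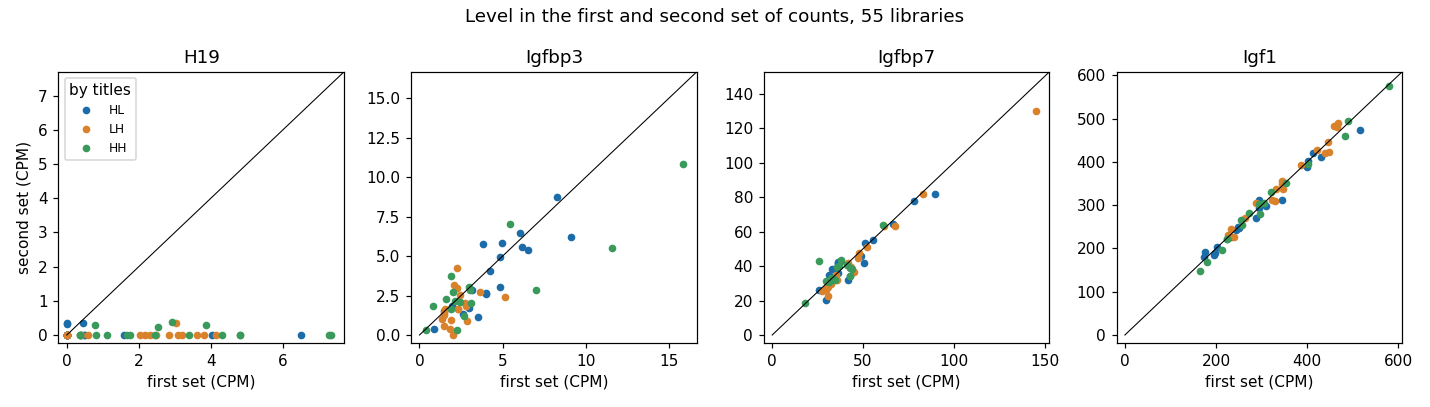
Level in the first set (horizontal axis, CPM) and in the second set (vertical axis, CPM) for H19, Igfbp3, Igfbp7 and Igf1 in 55 libraries, coloured by treatment as titled; the line marks equal values. Igf1 and Igfbp7 lie along the line and Igfbp3 scatters about it, while H19 lies along the horizontal axis.

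Of the 7 genes that could be tested, 2 were higher in the first set, H19 and Igfbp2, and 1 in the second, Igfbp6, where 8.38% and 8.66% of all genes were. Igfbp2 differed by 0.05 on the log2 scale (24356 against 23367 counts, adjusted p = 0.0132) and Igfbp6 by -0.13 (7219 against 7859 counts, adjusted p = 1.96e-05), both far smaller than the 4.30 of H19. Igf2r (adjusted p = 0.0527), Igfbp3 (0.0589), Igf1 (0.457) and Igfbp7 (0.519) did not pass.

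Other imprinted genes of the network in which H19 takes part were compared between the sets in the same way. Of 14 listed genes 9 were tested, 4 being higher in the first set and 2 in the second, beside 8.38% and 8.66% of all genes, with a median log2 fold change of 0.05 against 0.00 over all genes. Dlk1, a non-canonical Notch ligand, was 0.49 higher in the first set (216 against 153 counts, adjusted p = 0.0284), and the long non-coding RNA Meg3 from the same locus was 0.14 higher (adjusted p = 0.00059). Sgce and Grb10 were higher by 0.13 and 0.09, and Gnas and Plagl1 lower by 0.04 and 0.14. The 5 that were too low to test held few counts in the second set. Peg3, a zinc finger gene, held 92 counts in the first set and 4 in the second. Cdkn1c, an inhibitor of cell cycle kinases, held 51 and 4. Mest held 31 and 1, Nnat 34 and 4, and Gatm 27 and 5.

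Some markers of other cell types moved between the sets as well, and some did not. Of 3 leukocyte markers, Ptprc (the common leukocyte antigen CD45) held 417 counts in the first set and 3 in the second (adjusted p = 9.1e-67), Cd68 held 590 and 296, and Adgre1, too low to test, held 12 and 1. The adipocyte marker Lpl held 319 and 12 (adjusted p = 7.22e-43) and the muscle marker Acta1 67 and 14 (adjusted p = 1.97e-05). Of the epithelial markers Cdh1 held 376 and 152 (adjusted p = 3.73e-14), Epcam, too low to test, 41 and 8, and Krt14 40 and 42 (adjusted p = 0.791). Of the endothelial list 0 of 2 tested markers were called, Kdr at 30170 and 30283 counts (adjusted p = 0.463) and Pecam1 at 42 and 54 (adjusted p = 0.606). Genes with the smallest p higher in the first set, named after their values were seen, were the myeloid genes Lyz2 (2334 against 154 counts), Cybb, Cx3cr1, Csf1r and Laptm5; those higher in the second set were Alb (113 against 2726 counts), Apoa1, Apoe, Serpina1e and Serpina3k, all made in liver. By library numbers the summed leukocyte level in the first set ran from 2.10 to 10.1 CPM in HL, from 4.03 to 10.8 CPM in LH and from 2.36 to 9.31 CPM in HH, in sets of at least 1000000 counts. In the second set its medians were 1.43, 1.64 and 1.75 CPM. The summed epithelial level in the first set ran from 0.383 to 6.12 CPM in HL, from 0 to 6.01 CPM in LH and from 0 to 4.56 CPM in HH, and the adipocyte level from 0.581 to 4.01 CPM, from 0 to 4.48 CPM and from 0.673 to 3.67 CPM. The treatments overlapped in each of these sums. By titles they overlapped as well, and the adipocyte level in the first set reached 26.8 CPM in LH, beside 3.08 CPM in HL and 3.67 CPM in HH. The part of RNA from other cells in the H19 counts was not tested.

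**Figure D3:**
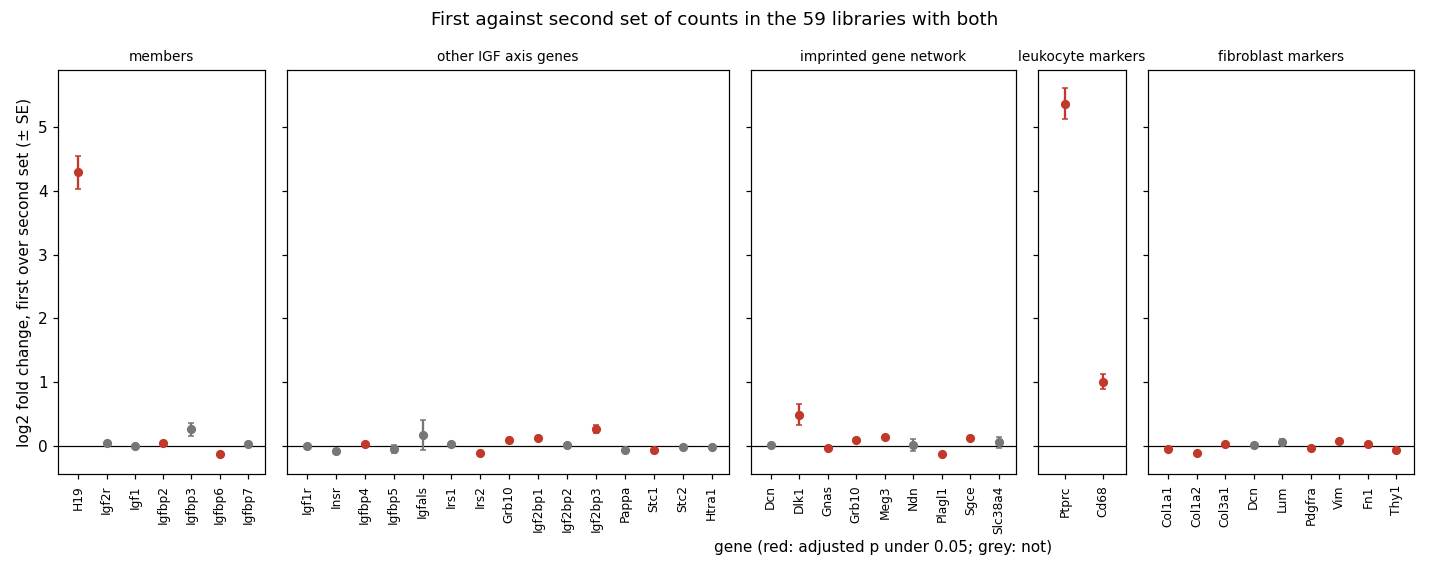
Log2 fold change of the first over the second set (vertical axis, with SE) for each tested gene of 5 lists in the 59 libraries with both sets; red points have an adjusted p under 0.05. H19 at 4.30 and the leukocyte marker Ptprc stand far above 0, and the other 6 tested members lie between -0.13 and 0.26.

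Genes most like H19 over libraries were named by a rule, the 5 highest Spearman's rho among genes of at least 5 CPM in 61 libraries of at least 1000000 counts. They were Sh3gl1 (0.51), Pdia4 (0.49), Osgin1 (0.48), Baiap2 (0.48) and Fstl1 (0.47). In the first set alone, among genes with at least 30 counts there, a choice made after the data were seen, 2200002D01Rik (0.74), Hoxc8 (0.66), Serpine2 (0.63), Rnf128 (0.59) and Peg3 (0.58) came first. Hoxc8 is a homeobox gene of positional identity and Serpine2 a secreted protease inhibitor. Over the 59 libraries, 2200002D01Rik held 68 counts in the first set and 8 in the second, Hoxc8 62 and 9, and Peg3 92 and 4. Serpine2, with 74 in the second, and Rnf128, with 195 and 79, had a larger share of their counts there, and Sh3gl1, also among those most like H19 in the first set (0.54), held 7095 and 7052. The minimum of counts in the first set favours genes with more counts there, so nothing is read from these values.

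Igf2 was near the limit of detection in both sets. It had 68 counts in 32 libraries, 31 in the first and 34 in the second set of the 59 libraries with both, and at most 5 in any library. By titles its level ran in HL from 0 to 0.866 CPM with a median of 0.157, in LH from 0 to 0.707 CPM with a median of 0.0712 (0.142 without the library of 104912 counts) and in HH from 0 to 0.662 CPM with a median of 0. The groups overlapped, and Igf2 was too low to be tested; it did not share the gap of H19 between the sets. The annotation used here limits what its count can show: Gm49394, a gene on the same strand, shares 3596 of the 5723 exonic bases of Igf2 (62.8%) and 497 of the 500 at its 3′ end, and is listed in the files with 0 counts. A read in both genes is ambiguous to a counter that needs 1 gene per read, so Igf2 counts are uncertain. The genes most like Igf2 by the same rule were Lysmd1 (0.42), Sec16a (0.40), Plxnb1 (0.39), Tomm34 (0.39) and Srp68 (0.38), on a median of 1 Igf2 count.

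Igf2r (chr17:12682406-12769664, minus strand), the uptake receptor for IGF2, was well counted and varied little. By titles it ran in HL from 55.1 to 129 CPM (median 107), in LH from 57.2 to 148 CPM (median 108) and in HH from 63.9 to 158 CPM (median 120). The groups overlapped over most of their range. HH was 0.20 higher than HL on the log2 scale (SE 0.08, adjusted p = 0.598) by titles and 0.17 higher (SE 0.07, adjusted p = 0.999) by library numbers, and it passed the thresholds in neither. The antisense RNA Airn, which silences the paternal Igf2r copy, shares no exonic base with it and held 2701 counts.

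Igf1 (chr10:87858265-87937042, plus strand), the ligand itself, ran in HL from 177 to 492 CPM (median 292), in LH from 219 to 482 CPM (median 338) and in HH from 155 to 577 CPM (median 299). The treatments overlapped, and no comparison passed under either naming: LH against HL was 0.24 (SE 0.12, adjusted p = 0.865) by titles and -0.07 (SE 0.11, adjusted p = 0.919) by library numbers. Over time HH, which has 1 naming, had a mean of 206 CPM ± 23.0 (SD, n = 4) at collection 1 and of 418 CPM ± 139 (SD, n = 4) at collection 6, and the 4 libraries of each did not overlap. By library numbers HL had 219 CPM ± 53.2 (SD, n = 3) and 399 CPM ± 72.1 (SD, n = 3) at the same collections, and LH 230 CPM ± 32.3 (SD, n = 3) and 384 CPM ± 101 (SD, n = 4). By titles, HL began with the same 3 libraries and ended at 325 CPM ± 60.6 (SD, n = 4). There LH began at 434 CPM ± 10.1 (SD, n = 3) and ended at 419 CPM ± 72.1 (SD, n = 4). The test over the 6 collections did not pass after adjustment in any treatment: the adjusted p by titles was 0.0966 for HL, 0.259 for LH and 0.113 for HH, and by library numbers 0.877, 0.173 and 0.104.

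Among the binding proteins, Igfbp3 and Igfbp6 were called lower in LH than in HL by titles, and neither was called by library numbers. A call here means an edgeR P under 0.01 over the 3 treatments and under 0.05 in the comparison, without adjustment. The study used the same limits, with a multiple comparison test as the second step. Since the treatment values may have been used in choosing the genes, nothing is read from these calls beyond the values. By titles 1.16% of all genes passed for LH against HL, 1.20% for HH against HL and 0.910% for LH against HH, and after adjustment 0.00% did in each. Of the 6 testable genes other than H19, 2 were called in LH against HL, 1 in HH against HL and 1 in LH against HH. By library numbers 1.34%, 0.568% and 1.63% of genes passed and none of the 6 did.

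Igfbp3 (chr11:7206086-7213923, minus strand), the main carrier of IGFs in blood, had 1087 counts in all. By titles it ran in HL from 0.586 to 8.54 CPM (median 3.31), in LH from 0 to 3.88 CPM (median 1.77) and in HH from 0.329 to 13.1 CPM (median 2.39). LH lay low, but within the range of both other groups apart from the library at 0, which is the one of 104912 counts. LH was 0.94 lower than HL on the log2 scale (SE 0.25, P = 0.00042, adjusted p = 0.472; log2 fold change -0.94) and 0.62 lower than HH (log2 fold change -0.62, SE 0.27, P = 0.0253, adjusted p = 0.883). The LH against HL call was lost without HL replicate 1 (-0.77) and without LH replicate 3 (-0.84) or 4 (-0.82), and that against HH without HH replicate 3 (-0.53), HL replicate 1 (-0.58) or LH replicate 3 (-0.50) or 4 (-0.48). By library numbers, HL ran from 0.919 to 6.26 CPM (median 2.37) and LH from 0.590 to 8.54 CPM (median 2.39), a fold change of 0.26 (SE 0.22, adjusted p = 0.831).

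Igfbp6 (chr15:102144362-102149511, plus strand), which prefers IGF2 to IGF1, ran by titles in HL from 32.4 to 65.8 CPM (median 48.3), in LH from 19.1 to 57.2 CPM (median 37.8) and in HH from 22.4 to 49.6 CPM (median 42.1). The ranges overlapped, with the HL median above both others. LH against HL was -0.31 (SE 0.09, P = 0.00143, adjusted p = 0.472) and HH against HL -0.32 (SE 0.09, P = 0.00117, adjusted p = 0.364). By library numbers these were 0.18 (SE 0.09, adjusted p = 0.665) and -0.08 (SE 0.09, adjusted p = 0.999). Both sets of counts taken alone kept the Igfbp3 call in LH against HL and the Igfbp6 calls by titles. The sets of a library share the same RNA, so this is no independent test of the calls. In the first set alone 1.32% of genes passed for LH against HL and 1.37% for HH against HL, and in the second 0.913% and 0.980%.

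Igfbp2 (chr1:72824503-72852474, plus strand) and Igfbp7 (chr5:77349240-77408041, minus strand), which binds IGFs only weakly, were called in no comparison. Igfbp2 ran by titles in HL from 67.2 to 183 CPM (median 121), in LH from 97.9 CPM to above the highest HL library (median 143) and in HH from 111 to 158 CPM (median 141). Its LH against HL difference was 0.22 (SE 0.08, adjusted p = 0.602) by titles and -0.24 (SE 0.08, adjusted p = 0.553) by library numbers. Igfbp7 ran from 10.3 to 85.5 CPM (median 38.5) in HL, from 26.0 to 137 CPM (median 41.1) in LH and from 18.3 to 80.0 CPM (median 38.0) in HH, with like medians. At the 3′ end of Igfbp7, 85 of the last 500 exonic bases are shared with Polr2b, a gene of 30616 counts on the opposite strand. The use of strand in counting is not given in the sources used here, so that part of its counts is uncertain.

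**Figure D4:**
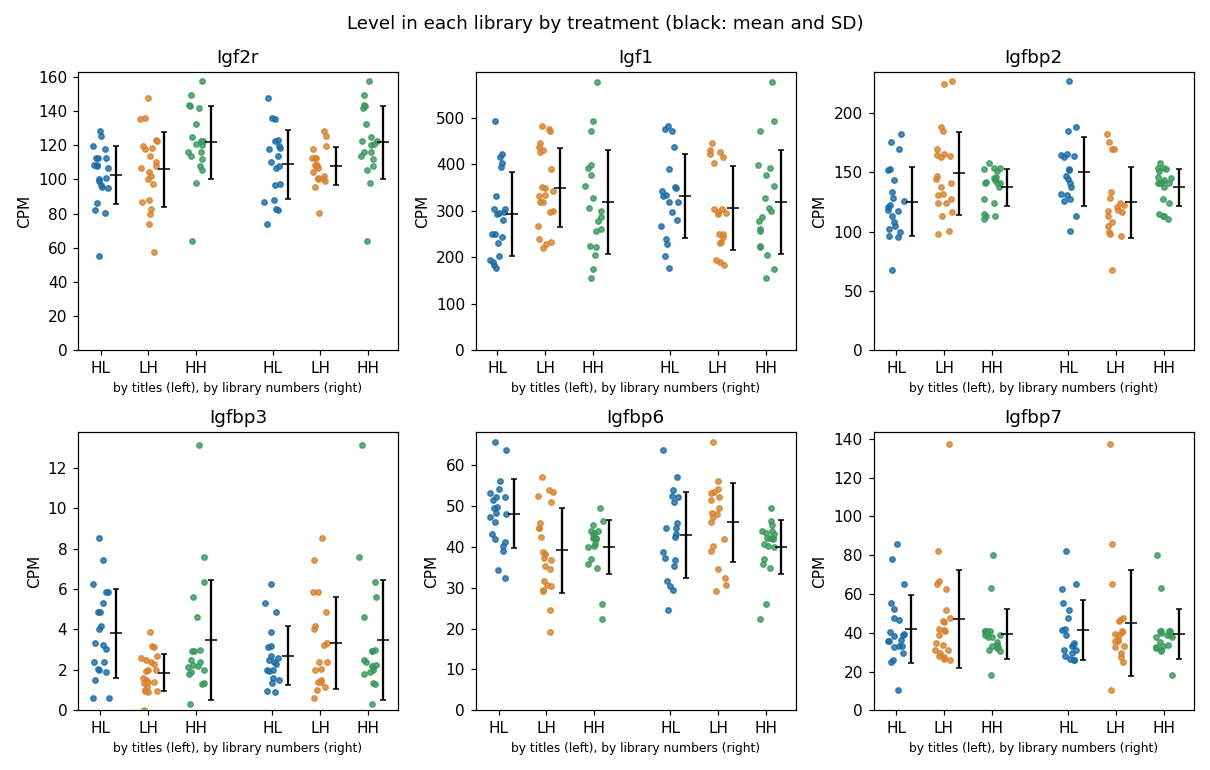
Level (vertical axis, CPM, from 0) of 6 IGF genes in each library by treatment, with treatments by titles on the left and by library numbers on the right of each panel; black marks are the mean and SD. Igfbp3 is lowest in LH by titles (median 1.77 CPM) and not by library numbers (median 2.39 CPM), and all groups overlap.

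The level of Igfbp3 over time is given as a description. In HH it had a mean of 7.48 CPM ± 4.23 (SD, n = 4) at collection 1, from 18 to 61 counts a library, and of 2.04 CPM ± 0.709 (SD, n = 4) at collection 6. At 12 h the 2 HH libraries held 2 and 7 counts, the lowest mean at 0.851 CPM. JTK_CYCLE, the rank test for rhythms used by the study, called Igfbp3 in HH (P = 0.00533, adjusted p = 0.393, peak at 2 h after the first collection), where 1.99% of all genes were called at P under 0.01. The study's count of circadian genes also set a minimum amplitude, which was not applied here. No other of the 7 tested genes was called rhythmic in any treatment by titles, with a background of 0.820% in HL and 1.53% in LH. The HH call was lost in the second set (P = 0.0981) and without HH replicate 1, 2 or 3.

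By library numbers Igfbp3 was highest at collection 1 in all treatments. HL had 5.48 CPM ± 0.711 (SD, n = 3) there and 1.61 CPM ± 0.707 (SD, n = 3) at collection 6, and LH 6.38 CPM ± 0.927 (SD, n = 3) and 1.25 CPM ± 0.191 (SD, n = 4). In neither treatment did the libraries of the 2 collections overlap. LH at collection 5 was 1 library, at 0.590 CPM from 2 counts. The edgeR test over the 6 collections passed in LH (adjusted p = 0.0398, background 1.05%) and in HH (adjusted p = 0.0115, background 0.803%) and not in HL (adjusted p = 0.526, background 0.394%). By titles the LH mean was 1.20 CPM ± 0.206 (SD, n = 3) at collection 1, below the 2.50 CPM ± 0.499 (SD, n = 4) of collection 3, and no treatment passed (adjusted p 0.822 for HL, 0.635 for LH and 0.0669 for HH; background 0.301%, 2.93% and 0.293%). By titles HL was also highest at collection 1, from the same 3 libraries, and ended at 2.27 CPM ± 1.47 (SD, n = 4). HH libraries are the same in both namings, and its p differs because the other libraries of the model do.

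**Figure D5:**
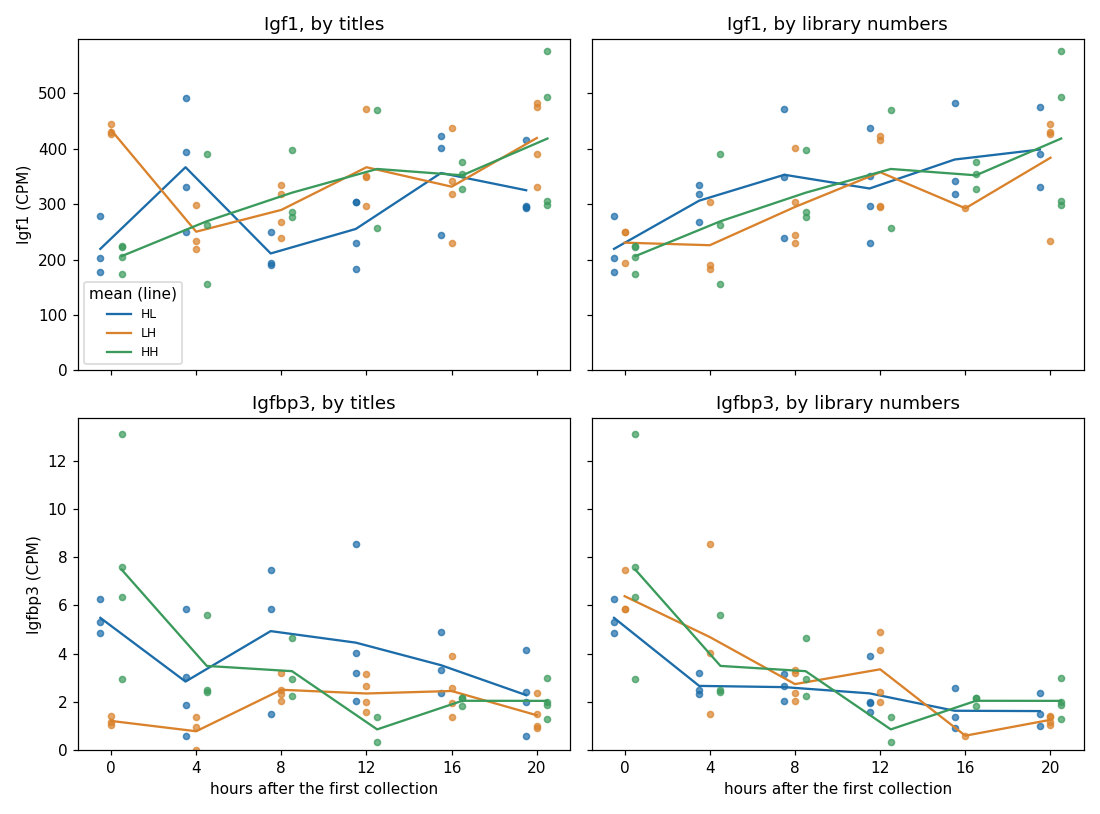
Igf1 (above) and Igfbp3 (below) in CPM (vertical axis) against hours after the first collection, by titles (left) and by library numbers (right); points are libraries and lines the means of HL, LH and HH. By library numbers Igf1 ends above and Igfbp3 below its first collection in all 3 treatments. By titles they do so in HL and HH, while LH begins at 434 CPM of Igf1 and 1.20 CPM of Igfbp3.

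Igf1 and Igfbp3 were also related across libraries, without use of either naming. Libraries of a treatment and collection share the levels on which the genes may have been chosen, so the p-values of pairs are no independent test. Of the 28 pairs of the 8 genes, 2 were called over 62 libraries on log2(CPM + 1), with p from permutation tests of 100000 resamples, two-sided, and Benjamini-Hochberg adjusted over the pairs. Igf1 and Igfbp3 ran opposite (Pearson's r -0.44, p = 0.00042, adjusted p = 0.00588; Spearman's rho -0.43, p = 0.00088, adjusted p = 0.0123), and r was -0.46 without the 2 libraries farthest from the median of Igf1. Igfbp3 and Igfbp6 ran together (r 0.54, rho 0.53, each with the smallest p that the permutations can give, 1e-05, and adjusted p = 0.00028), with r 0.46 without the 2 farthest libraries. Once treatment and collection means by titles were removed, Igf1 and Igfbp3 had an r of -0.13 (permutation adjusted p = 0.522) and Igfbp3 and Igfbp6 of 0.42 (permutation adjusted p = 0.0101). With means by library numbers removed these were -0.06 (permutation adjusted p = 0.653) and 0.24 (permutation adjusted p = 0.300), and no pair was called. Igf1 and Igfbp7, not called at first (r 0.28, permutation adjusted p = 0.211), were called once means by titles were removed (r 0.46, permutation adjusted p = 0.00504) and not with means by library numbers (r 0.32, permutation adjusted p = 0.0944). H19 and Igfbp2 were called, of the settings run, only without the library under 1000000 counts (r 0.37, permutation adjusted p = 0.0329), where H19 lies in 2 stretches of libraries.

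Further genes of the IGF axis, a list of 17 with 15 tested, included receptors, adaptors, proteases of binding proteins and their inhibitors. This list, like those of imprinted genes and of neighbours on the chromosome, was chosen with earlier results of these data known. Its calls, here and below, are no independent test, and nothing is read from them beyond the values. Igf1r, the receptor for IGF1, ran from 143 to 534 CPM over all libraries (median 381) and passed no test. By titles 3 were called higher in LH than in HL and in HH than in HL, and none lower, beside 1.16% and 1.20% of all genes in either direction. They were Irs1, an adaptor of the insulin and IGF1 receptors, Pappa, a protease that cuts IGF-binding proteins, and Stc2, an inhibitor of that protease. Stc2 was higher by 0.38 (SE 0.09, adjusted p = 0.261) in LH and by 0.22 (SE 0.10, adjusted p = 0.637) in HH. Irs1 was higher by 0.31 (SE 0.12) and 0.37 (SE 0.13), and Pappa by 0.29 (SE 0.10) and 0.29 (SE 0.11). The median of the list was 0.06 and 0.12, against 0.00 over all genes in both. By library numbers none of these 3 was called, and the related inhibitor Stc1 was called higher in LH than in HL by 0.91 (SE 0.37, adjusted p = 0.620) and than in HH by 1.17 (SE 0.37, adjusted p = 0.278). Of all genes, 1.34% and 1.63% were called in these comparisons by library numbers, in either direction.

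Stc2 was the gene of the list that differed over collections most often. By titles it passed in HL (adjusted p = 0.0065, background 0.301%) and HH (adjusted p = 0.00179, background 0.293%), and Stc1 passed in LH (adjusted p = 0.00582, background 2.93%). By library numbers Stc2 passed in HL (adjusted p = 2.41e-05), LH (adjusted p = 0.00111) and HH (adjusted p = 1.89e-05), beside 0.394%, 1.05% and 0.803% of all genes. JTK_CYCLE called Pappa in HH (P = 4.15e-05 in both namings, adjusted p = 0.0678 by titles, peak at 14 h), where 1.99% of genes were called by titles. In LH it called Grb10 in both namings, peaking at 10 h by titles (P = 0.00648, adjusted p = 0.538) and at 4 h by library numbers (P = 0.000706, adjusted p = 0.173), and Stc2 by titles (P = 0.00425, peak at 20 h), where 1.53% of genes were called by titles and 2.14% by library numbers. Of the imprinted list no gene was called in a comparison of levels under either naming. Of 12 neighbours of H19 and Igf2 on the chromosome 7 were tested, and none was called by titles. Ctsd, a lysosomal protease, was called by library numbers, higher in LH than in HH by 0.24 (SE 0.07, adjusted p = 0.288), where 1.63% of all genes were called.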

How the data were processed

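The sequencing service trimmed and filtered single-end reads of 100 cycles, aligned them to mm10 and counted them by gene; the submitters' processing notes name bcl2fastq, STAR 2.6.0a and HTSeq 0.9.1. The authors deposited the counts without normalization, and the 2 sets of a library were summed. Reads on no feature (18.4% to 29.1%) or ambiguous (0.288% to 0.459%), which name no gene, stayed out of totals. Groups came from titles. Positions and symbols are from GENCODE M21.

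Of 31053 genes, 13292 reached 1 cpm in 3 or more libraries and were tested in edgeR 4.0.16 (R 4.3.3), with TMM scaling and collection as a term for levels. JTK_CYCLE was rewritten with a 24 h period and phases in 2 h steps. The paired test of the 2 sets, likeness to H19 in the first set and summed markers were added after seeing the data. The paired test of the sets, the edgeR fits of levels, rhythms and collections, and JTK_CYCLE were first checked on simulated counts. The members and lists were chosen with earlier results of these data known. Named genes were all 8 members, genes of the lists past a threshold, and the 5 most like H19 and Igf2.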

Additional observations from a re-analysis of the deposited data

Results flagged for a closer look

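Of 71 groups of 4 libraries searched, 6 held a library far from the other 3 by Dixon's test. It flags about 1 in 20 groups by chance, a rate that does not hold for the H19 and Igf2 values, since with few counts any library above 0 is picked out when the others are at 0. H19 in HL collection 4 replicate 1 was 0.237 CPM, from 1 count, with the others at 0. Igf2 was 0.866 CPM (4 counts) in HL collection 2 replicate 1, 0.282 CPM (1 count) in HL collection 6 replicate 2 and 0.707 CPM (4 counts) in LH collection 4 replicate 3, each with the others at 0. Igf1 was 416 CPM in HL collection 6 replicate 3, where the others lay between 292 and 297 CPM. Igfbp6 was 57.2 CPM in LH collection 5 replicate 2, where the others lay between 36.7 and 38.8 CPM. The edgeR fit of a 24 h rhythm of H19 gave an adjusted p of 0.00146 for LH against HL by titles and of 0.9998 by library numbers. It is no independent test, since values of H19 by treatment and collection were used in choosing the gene.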

How the results depend on the processing

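By library numbers (the shallow library has none, so leaving it out changes nothing there) the counts of called genes other than H19 fell from 2, 1 and 1 (LH against HL, HH against HL, LH against HH) to 0 each, as they did at an adjusted p of 0.05; the second set alone gave 0 for LH against HH. Igfbp3 then turned to 0.26 against HL and 0.041 against HH, Igfbp6 to 0.18 against HL, and H19 to -4.10, 0.34 and -4.44; without a term for collection H19 was 1.23 in LH against HL. Genes rhythmic in HL went from 0 to 1 in the second set (Igf2r) and by a cosinor (H19), in LH from 0 to 1 in the first set, without the shallow library and by a cosinor (H19 each time), and in HH from 1 to 0 in the second set and after adjustment. Of all genes, 0.509% in HL and 1.82% in HH were rhythmic in the second set, 1.36% in LH in the first, 1.52% in LH without the shallow library, and 1.12% in HL and 3.27% in LH by a cosinor. Genes differing over collections in HL went from 1 to 0 with at least 5 cpm, by library numbers and in the second set, and to 3 with no filter; in LH from 0 to 1 in the first set (H19), the second (Igfbp7), by library numbers (Igfbp3) and without the shallow library (H19), and to 2 with no filter; in HH from 0 to 1 in the first set and by library numbers (Igfbp3), and to 2 with no filter. Of all genes, 3.08%, 6.05% and 2.4% (HL, LH and HH) differed over collections with no filter, 1.87% in LH and 0.198% in HH in the first set, 7.11% in LH in the second, and 3.87% in LH without the shallow library. The H19 rhythm difference, 1, went to 0 with at least 5 cpm, by library numbers and in the second set, and the count to 2 in the first set and with no filter, where at most 0.0732% and 0.4% of genes passed in a comparison. With at least 5 cpm and in the second set H19 was not tested, so its change to 0 there, for collections and for the rhythm, was set by the filter. The 2 related pairs became 0 after means by library numbers were removed, and 3 without the shallow library; with means by titles removed there were 2, of which 1 was another pair. The cause of the other changes was not tested.

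Leaving out each replicate number of a treatment in turn gave 1 to 2 called genes for LH against HL, 1 for HH against HL and 0 to 1 for LH against HH; 0 to 1 rhythmic genes in HL and in HH and 0 in LH; 0 to 2, 0 to 1 and 0 to 1 genes over collections in HL, LH and HH; and 1 rhythm difference. H19 ranged from 1.56 to 2.36, 2.27 to 2.79 and -0.89 to -0.17. Same-numbered libraries did not deviate together (median correlation -0.009 over 52 pairs, -0.002 over 153 pairs of different numbers), and with the replicate block the calls were 2, 1 and 1.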

Other observations

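With 320 H19 and 68 Igf2 counts over 62 libraries, single libraries do not resolve either gene. H19 in the second set, at 9 counts, is too low to show a difference between treatments. In the library of 104912 counts 1 count is a level of 9.53 CPM. What the second processing of the libraries changed is not given in the sources used here, and the titles and library numbers could not be reconciled.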
